A study of Schmidtea mediterranea with 24 samples.

Results

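The comparison described here sets tails injected with extracellular vesicles (EVs) against tails injected with buffer, in the planarian *Schmidtea mediterranea*. Its members were chosen by label: the 4 EV_inj libraries and the 4 ctrl_inj libraries, 8 of the 12 libraries of the series, compared across all transcripts with 1 library as 1 replicate. EV_inj animals received vesicles prepared from tissue fragments 12 hours after amputation, mixed with a fluorescent dextran, at roughly 1 animal's vesicles per recipient. ctrl_inj animals received the buffer with the same dextran and no vesicles. In both groups animals with little dextran after 1 hour were removed, and tails were taken 24 hours after injection. The remaining 4 libraries, uninj, came from animals that had no injection and no dextran selection, and they serve here as a background level. Every group was wild type and of 1 asexual clonal line, CIW4, starved for 7 days beforehand, and each library pooled 5 tail fragments cut without about 10% of the tail at its tip. The sources used here do not say whether the 4 EV_inj pools received separate vesicle preparations. The p-values therefore measure the spread between pools, which the tests of single transcripts take from all 12 libraries.

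Planarians are free-living flatworms that rebuild missing body parts from dividing stem cells called neoblasts. Extracellular vesicles are membrane-bound particles that cells release and that can carry proteins and RNA to other cells. Vesicles from regenerating fragments injected into an uncut tail therefore ask which transcripts of a resting tissue respond to them, over and above a needle wound and fluid. The deposited tables name transcripts by identifier and pair none with a gene name. No role is therefore given to any of them, and the tail tissue could not be checked against its marker genes.

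The injected libraries held 21626096 to 30903133 counts. Total counts, the number of transcripts detected and the share of counts in the 10 most abundant transcripts were compared between the groups. Transcripts detected averaged 26925.5 ± 46.9 in EV_inj and 27021.8 ± 208 in ctrl_inj libraries, and the 10 most abundant transcripts took 7.50% ± 0.146 of counts in EV_inj and 7.61% ± 0.128 in ctrl_inj libraries (SD, n = 4 each). None of the 3 measures differed beyond the spread between libraries (exact permutation tests, two-sided, p = 0.657 for totals, 0.629 for transcripts detected and 0.257 for the top 10 share, adjusted p = 0.657 for each, where 4 against 4 cannot go below 0.0286). The biological coefficient of variation between replicates was 7.18% in EV_inj, 9.12% in ctrl_inj and 6.34% in uninj, and 8.18% in ctrl_inj without its replicate 2.

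Few transcripts passed the adjusted threshold between the groups, and most of those that did differed by less than 1.5-fold. Of 21149 transcripts with enough counts to test, 21 passed an adjusted p of 0.05 (edgeR quasi-likelihood test with Benjamini-Hochberg adjustment), which is 0.0993% of those tested. The 9 higher in EV_inj tails (0.0426%) stood 1.25-fold to 2.00-fold above buffer, with a median of 1.36-fold. The 12 lower ones (0.0567%) stood at 0.738 to 0.846 of the buffer level, with a median of 0.796. Against a minimum difference of 1.5-fold edgeR called 0, with 49 transcripts at an unadjusted p under 0.05. With the ordinary test DESeq2 called 148 and limma-voom 22. edgeR fitted with only the 8 injected libraries called 6. The count changed when single libraries were left out. It was 0 without EV_inj replicate 1 or EV_inj replicate 3, where the smallest edgeR adjusted p was 0.0596 and 0.0515. Such fits also have fewer libraries. All 21 transcripts kept their direction in both, which lends no support, since their groups did not overlap to begin with. The account of single libraries further on gives the other counts.

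The transcripts described one by one were chosen for a small p and for groups that do not overlap. Their separation therefore lends no support of its own, and their intervals are not adjusted for that choice. The 2 rises with the smallest p were dd_Smed_v6_9402_0_1, of 1962 bases, and dd_Smed_v6_585_0_1, of 659 bases. The level of dd_Smed_v6_9402_0_1 in EV_inj replicates 1 to 4 was 40.2, 38.9, 42.2 and 40.8 CPM, against 28.0, 29.7, 31.7 and 29.4 CPM in ctrl_inj replicates 1 to 4. All 4 EV_inj libraries lay above all 4 ctrl_inj libraries, by at least 7.26 CPM, and the libraries of a group stood close together. EV_inj stood 1.36-fold over buffer, with a 95% interval of 1.25 to 1.49. On the log2 scale the difference came to 0.45 ± 0.06 (SE, edgeR adjusted p = 0.0227). Uninjected tails had 11.7, 12.7, 10.6 and 9.90 CPM of it, below both injected groups. Its log2 difference from uninjected tails was 1.84 ± 0.07 in EV_inj and 1.40 ± 0.07 in ctrl_inj (SE, edgeR adjusted p = 3.72e-12 and 1.32e-10), 2 comparisons that share the uninjected libraries. The adjusted p over buffer was 0.0596 without EV_inj replicate 1 and 0.0572 without EV_inj replicate 3, and the call held in the 10 other fits that left out 1 library.

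dd_Smed_v6_585_0_1 had 45.6, 46.8, 44.9 and 51.4 CPM in EV_inj libraries and 34.6, 30.9, 38.3 and 32.5 CPM in ctrl_inj libraries. The groups did not overlap here either, with EV_inj replicate 4 the highest of its group and ctrl_inj replicate 3 the highest of the buffer group. The fold over buffer was 1.38 (95% interval 1.24 to 1.54) and the log2 fold change 0.47 ± 0.08 (SE, edgeR adjusted p = 0.0337). Uninjected tails had 12.9 to 17.2 CPM. In log2 terms the transcript stood 1.68 ± 0.08 above them in EV_inj and 1.22 ± 0.08 in ctrl_inj (SE, edgeR adjusted p = 1.33e-10 and 7.37e-09). This call was the least firm of the 4 described one by one. It held in 5 of 12 fits that left out 1 library and was lost without EV_inj replicate 1, 3 or 4, without ctrl_inj replicate 1 or 4, and without uninj replicate 2 or 3, where the adjusted p ran up to 0.0847.

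**Figure D1:**
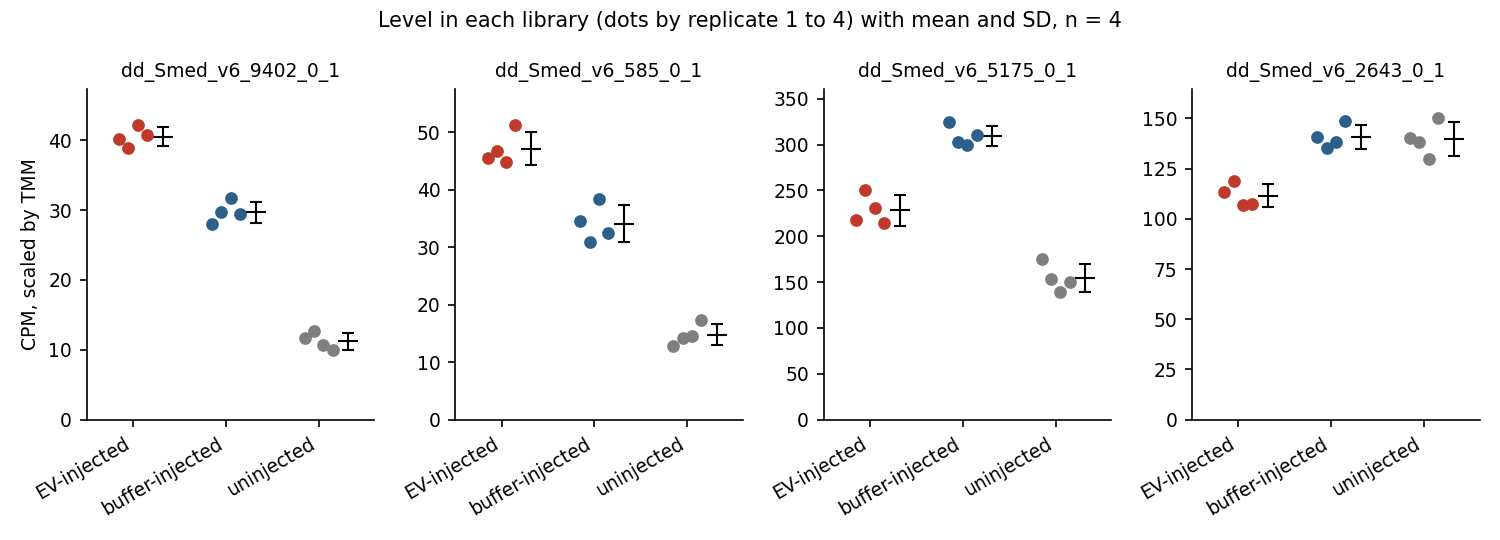
Level in CPM of the 4 transcripts described one by one, with 1 panel each. Dots are libraries in the order of replicates 1 to 4, and the black marks give the mean and SD of 4 libraries. The transcripts were chosen for a small p and for injected groups that do not overlap. In each panel the EV-injected dots lie apart from the buffer-injected dots, above them for dd_Smed_v6_9402_0_1 and dd_Smed_v6_585_0_1 and below them for the other pair, and uninjected tails lie lowest in all but the panel of dd_Smed_v6_2643_0_1.

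The 2 falls with the smallest p were dd_Smed_v6_5175_0_1, of 4076 bases, and dd_Smed_v6_2643_0_1, of 1660 bases. dd_Smed_v6_5175_0_1 had 217, 251, 231 and 214 CPM in EV_inj libraries, against 325, 303, 299 and 310 CPM in ctrl_inj libraries. A gap of 48.8 CPM separated the highest EV_inj library, replicate 2, from the lowest ctrl_inj library, replicate 3. The EV_inj level was 0.738 of the buffer level, with a 95% interval of 0.673 to 0.809, and on the log2 scale the difference came to −0.44 ± 0.06 (SE, edgeR adjusted p = 0.0233). Uninjected tails had 139 to 175 CPM, less than either injected group. Relative to them the log2 difference was 0.56 ± 0.06 in EV_inj and 1.00 ± 0.06 in ctrl_inj (SE, edgeR adjusted p = 3.53e-06 and 3.81e-09). The lower level with vesicles was therefore still above the uninjected level. The call was lost without EV_inj replicate 1, 3 or 4, at adjusted p of 0.0596, 0.0572 and 0.0596.

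dd_Smed_v6_2643_0_1 had 113, 119, 107 and 107 CPM in EV_inj libraries and 141, 135, 138 and 149 CPM in ctrl_inj libraries. Its groups lay 16.3 CPM apart. The EV_inj level was 0.793 of the buffer level (95% interval 0.737 to 0.853), a log2 fold change of −0.34 ± 0.05 (SE, edgeR adjusted p = 0.0250). Uninjected tails, at 130 to 150 CPM, overlapped the buffer group and not the EV_inj group. The log2 difference from uninjected tails was −0.32 ± 0.05 in EV_inj (SE, edgeR adjusted p = 0.000103) and 0.01 ± 0.05 in ctrl_inj (SE, edgeR adjusted p = 0.911). The call was lost without EV_inj replicate 1, 3 or 4 and without ctrl_inj replicate 4, where the adjusted p ran from 0.0596 to 0.0726.

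The mean log2 CPM of the 21 called transcripts ran from 1.97 to 7.95 with a median of 5.48, against a median of 2.92 over all tested transcripts. The standard error of the log2 difference had a median of 0.06 among them and of 0.10 over all tested transcripts. It was above that overall median, at 0.13 to 0.16, for 3 of the rises. In each of the 21 the EV_inj values lay apart from the ctrl_inj values, and the same held for 4.90% of all tested transcripts, with 471 (2.23%) higher and 566 (2.68%) lower in EV_inj. Only 3 of the 21, all of them rises, reached 1.5-fold, and the other 18 lay under it. These were the same 3 rises that had standard errors of 0.13 to 0.16. Their SD among EV_inj libraries was 21.6% to 27.2% of the mean, against a median of 5.41% over the 21. The 9 rises together took 0.0745% to 0.0810% of counts in EV_inj libraries, 0.0495% to 0.0584% in ctrl_inj libraries and 0.0267% to 0.0305% in uninjected ones. The most abundant rise alone averaged 377 CPM in EV_inj and 276 CPM in ctrl_inj libraries, against medians of 56.6 and 33.7 CPM over the 9. The 12 falls took 0.0851% to 0.0885% in EV_inj, 0.106% to 0.112% in ctrl_inj and 0.0754% to 0.0802% in uninjected libraries. The EV_inj and ctrl_inj sums lie apart through the choice of these transcripts.

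Each library was sequenced in 2 runs, which repeat the reading of a library and not the experiment. The called transcripts were chosen from both runs summed, so a shared direction in the single runs lends no support. The rises had a median log2 difference of 0.45 in run 1 and 0.47 in run 2, and the falls of −0.33 in either run. Of the 21, 14 were called from run 1 alone and 5 from the shallower run 2 alone.

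**Figure D2:**
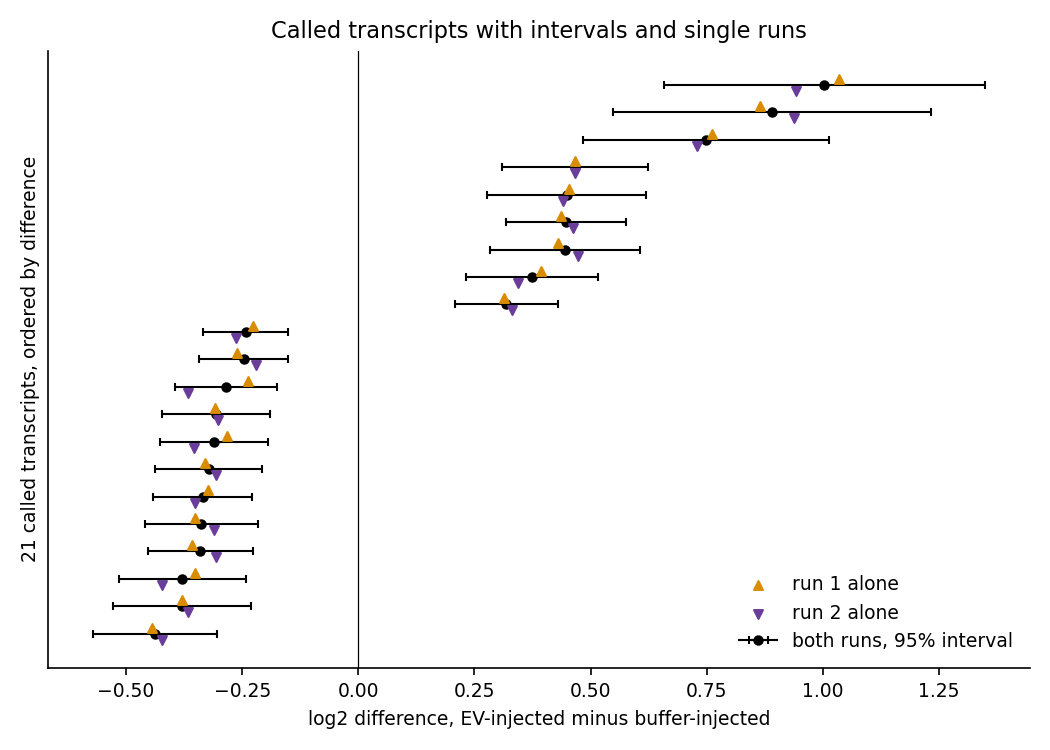
Log2 difference of EV-injected minus buffer-injected tails on the horizontal axis for the 21 called transcripts, 1 line each. Black points and bars give the estimate from both runs with its 95% interval, and triangles the estimate from each run alone. The 9 rises spread from 0.32 to 1.00 and the 12 falls lie between −0.44 and −0.24. Both runs stay on the same side of 0 for every transcript, which the choice from the summed runs favours.

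The uninjected libraries place the called transcripts relative to an untouched tail, in comparisons that share libraries with the one that chose them and so lend it no support. The 9 rises had a median log2 difference from uninjected tails of 1.603 in EV_inj (range 0.33 to 2.10) and of 0.71 in ctrl_inj (range −0.02 to 1.65). The 12 falls had a median of −0.03 in EV_inj (range −0.53 to 0.82) and of 0.28 in ctrl_inj (range −0.18 to 1.13). Over all tested transcripts the medians were 0.00 in both comparisons. In RNA from whole tails, more cells of a kind and more RNA per cell cannot be told apart.

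The called rises were 395 to 1962 bases long with a median of 702, and the falls 810 to 4926 bases with a median of 1746.5, while the median of all tested transcripts was 1107 bases. Among 5740 tested transcripts of 500 to 1000 bases 6 were called, 5 of them rises, and among 7319 of 1000 to 2000 bases 10 were called, 3 of them rises. Among 3518 of 2000 to 4000 bases and 776 longer ones 2 each were called, all of them falls. The median log2 difference of all tested transcripts was 0.02 in the shortest class, under 500 bases, −0.01 at 1000 to 2000 bases and 0.02 from 4000 bases on. A link with length was not tested.

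Most transcripts were measured finely enough to bound the difference between the groups. The median size of the log2 difference over all tested transcripts was 0.09, and 10347 of them were nominally higher and 10802 nominally lower in EV_inj. The 95% interval lay wholly within 1.2-fold in either direction for 8495 transcripts, or 40.2%, and within 1.5-fold for 15541, or 73.5%. This depended on level. At a mean log2 CPM of 6 to 8 the interval lay within 1.2-fold for 86.5% and within 1.5-fold for 99.1% of 2279 transcripts. At 0 to 2 these shares were 0.374% and 60.4% of 4815 transcripts, and under 0 they were 0% and 2.98% of 3556. A 1.5-fold difference in the scarcest transcripts was therefore not detectable at this depth for most of them.

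**Figure D3:**
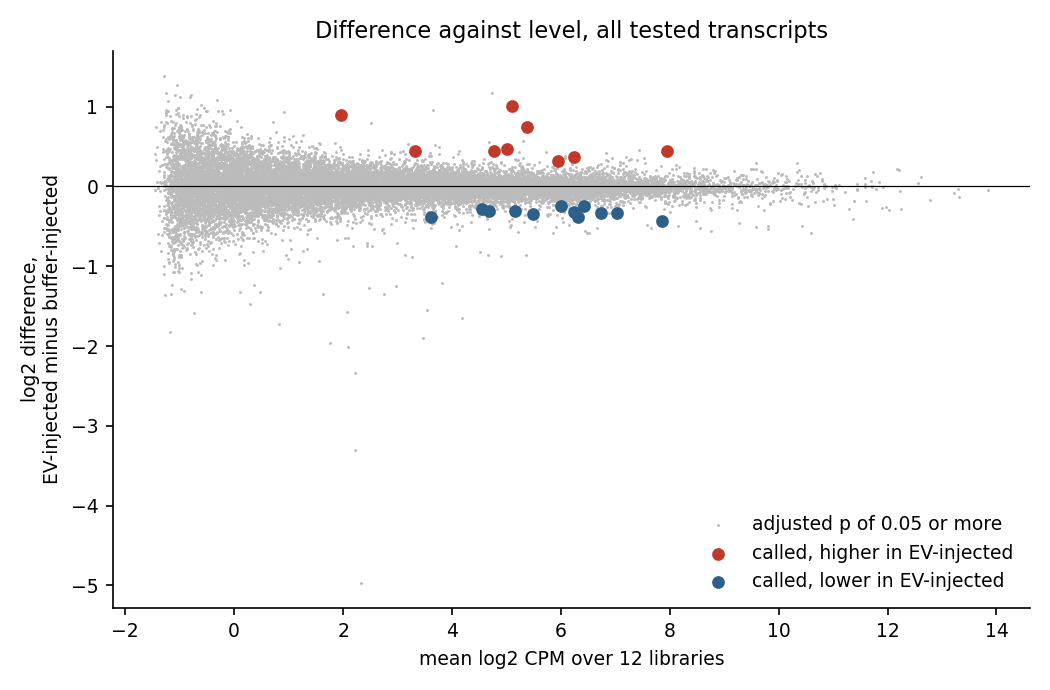
Log2 difference of EV-injected minus buffer-injected tails (vertical axis) against mean log2 CPM (horizontal axis) for 21149 transcripts. Coloured dots are the 9 transcripts called higher and the 12 called lower, and grey dots the rest. The called dots sit at mean log2 CPM of 1.97 to 7.95, while the largest differences on the plot, down to −4.96, are grey.

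Calls and smaller differences were spread unevenly over the levels. Of the 21 calls, 9 were among 2279 transcripts with a mean log2 CPM of 6 to 8 (0.395%) and 9 among 4853 at 4 to 6 (0.185%). There were 2 among 5013 at 2 to 4 (0.0399%) and 1 among 4815 at 0 to 2 (0.0208%). From 8 on 0 of 633 were called, and under 0 it was 0 of 3556. The share with an unadjusted p under 0.05 was 5.29% under a mean log2 CPM of 0, 14.0% at 4 to 6, 17.6% at 6 to 8 and 17.7% from 8 on, and 10.1% over all levels, made up of 4.37% higher and 5.69% lower in EV_inj. The share whose groups did not overlap went the same way, with 2.95% in the lowest class and 8.06% in the highest. Below the threshold, another 20 transcripts had an edgeR adjusted p of 0.05 to 0.1, of which 8 were higher and 12 lower in EV_inj, and 191 had one of 0.1 to 0.2, of which 68 were higher and 123 lower. The smallest adjusted p in the comparison was 0.0227.

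**Figure D4:**
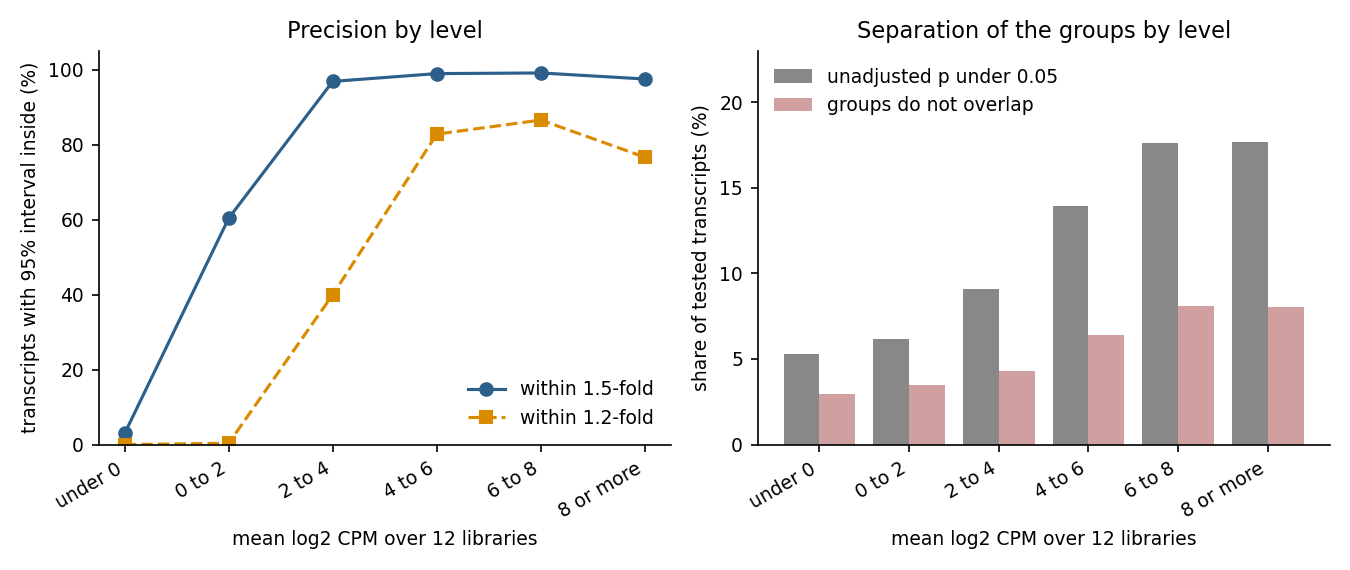
Tested transcripts in 6 classes of mean log2 CPM (horizontal axes). The left panel gives the percentage whose 95% interval of the fold change lies within 1.5-fold or 1.2-fold, and the right panel the percentage with an unadjusted p under 0.05 and the percentage whose groups do not overlap. Both left-hand shares are near 0% in the lowest class and at least 76.6% from a mean log2 CPM of 4 on, and both right-hand shares are larger at high levels than at low ones.

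Whole libraries were compared by their distance, the root mean square difference of log2 CPM over the 1000 most variable transcripts. The distance averaged 0.640 between EV_inj and ctrl_inj libraries, 0.562 among EV_inj and 0.720 among ctrl_inj libraries. The between-group minus the within-group mean was −0.00157 (exact permutation test over all divisions of the 8 libraries, two-sided, p = 0.571, where this form of the test cannot go below 0.0571). Each ctrl_inj library was on average nearer to the EV_inj libraries than to its own group. ctrl_inj replicate 2 lay farthest from every group, at 0.815 from EV_inj and 0.822 from the other ctrl_inj libraries, against 0.573 to 0.587 and 0.646 to 0.726 for the other ctrl_inj libraries.

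Over the 5083 transcripts with a mean log2 CPM of at least 5 the distance averaged 0.165 between groups, 0.139 among EV_inj and 0.160 among ctrl_inj libraries. The difference was 0.0152, and its exact permutation p, two-sided, was 0.0571. That is the smallest value this two-sided form can give, since swapping the group names leaves the distances as they are. Each EV_inj library was nearer to its own group than to the buffer group, as over the 1000 most variable transcripts. The margin was narrowest for EV_inj replicate 2, at 0.145 from EV_inj and 0.149 from ctrl_inj libraries. ctrl_inj replicates 1 and 3 were here nearer to their own group, at 0.172 and 0.159 from EV_inj against 0.155 and 0.154 from ctrl_inj libraries. ctrl_inj replicates 2 and 4 were not, at 0.163 and 0.165 from EV_inj against 0.163 and 0.167 from ctrl_inj libraries. With all tested transcripts the difference was 0.00514 (exact permutation p = 0.343).

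**Figure D5:**
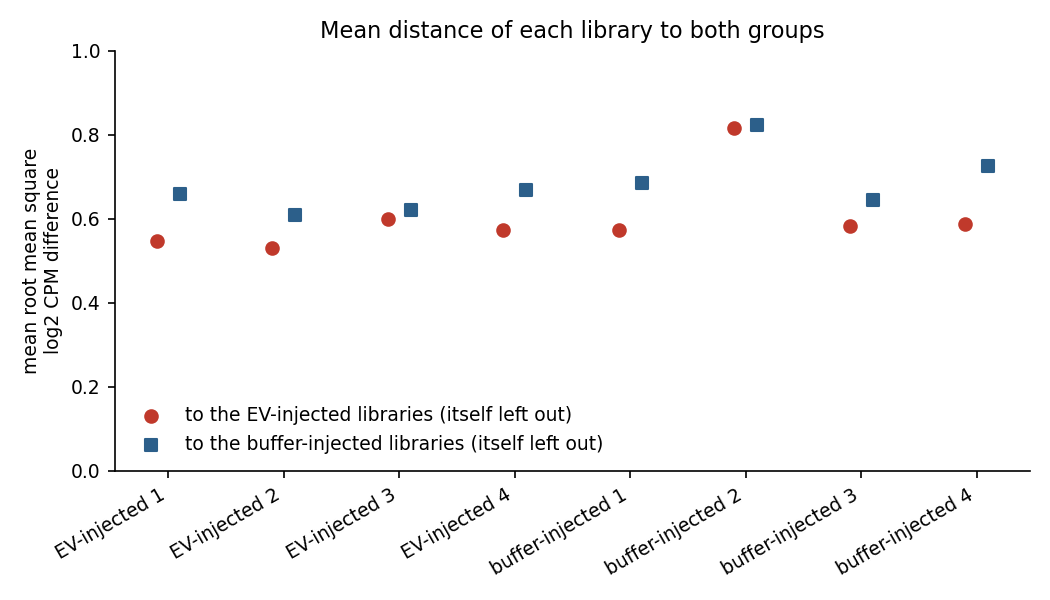
Mean distance of each injected library (horizontal axis) to the EV-injected and to the buffer-injected libraries, in units of log2 CPM over the 1000 most variable transcripts. Buffer-injected replicate 2 stands highest at about 0.8 for both groups, and the EV-injected libraries stand nearer to each other than to the buffer group.

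The largest fitted differences were mostly not among the calls, and at measurable levels most of them were highest in that one buffer library. At a mean log2 CPM of at least 0, 22 transcripts had a fitted difference of 2-fold or more, 20 lower and 2 higher in EV_inj, of which 1, a rise, was called. In 19 of the 20 lower ones ctrl_inj replicate 2 held over 50% of the buffer group's summed CPM. The most extreme had 0.461, 0.151, 0.729 and 0.465 CPM in EV_inj libraries, against 0.320, 51.4, 3.37 and 0.763 CPM in ctrl_inj libraries and 0.344 to 0.701 CPM in uninjected ones. Its log2 difference was −4.96 ± 1.61 (SE, edgeR adjusted p = 0.147), and −1.83 ± 0.61 without ctrl_inj replicate 2 (SE, edgeR adjusted p = 0.244). Without that library 3 transcripts in place of 22 reached 2-fold, 2 of them lower. The count also moved to 43 without EV_inj replicate 3, 40 without ctrl_inj replicate 1 and 37 without ctrl_inj replicate 4. Over all levels 53 transcripts, or 0.251%, reached a fitted 2-fold, and 31 of these had a mean log2 CPM under 0.

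ctrl_inj replicate 2 also matched the EV_inj group where its own group did not. The transcript with the smallest p once this library was left out, picked after that result was seen, had 174, 167, 180 and 177 CPM in EV_inj libraries. In ctrl_inj libraries it had 125, 174, 117 and 107 CPM, so that replicate 2 alone lay within the EV_inj range, and uninjected libraries had 33.2 to 36.2 CPM. Its log2 difference was 0.42 ± 0.10 (SE, edgeR adjusted p = 0.146) with all libraries and 0.58 ± 0.05 (SE, edgeR adjusted p = 8.52e-05) without replicate 2. Every injected library made the groups overlap for some transcripts. Of 21149 tested, 774 had overlapping groups that came apart once ctrl_inj replicate 2 was left out. For EV_inj replicate 2 the number was 1004, and for each of the other 6 libraries 553 to 771. Such a library need not lie within the range of the other group, and 1 transcript can count for more than 1 library. EV_inj replicate 2 was the EV_inj library nearest to the buffer group, at 0.609 over the 1000 most variable transcripts. The calls made without it are given below.

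With each library left out in turn, edgeR called 0 to 51 transcripts. Without EV_inj replicate 1 there were 0 calls, with 1933 transcripts at an unadjusted p under 0.05, and DESeq2 called 102 and limma-voom 14. Without EV_inj replicate 3 there were also 0 edgeR calls, with 1798 transcripts at an unadjusted p under 0.05, and DESeq2 called 66 and limma-voom 5. Without EV_inj replicate 2 there were 51 calls, 11 higher and 40 lower in EV_inj, 15 of them among the 21. The count was 3 without EV_inj replicate 4, and 8, 7 and 4 without ctrl_inj replicates 1, 3 and 4. It was 4 without uninj replicate 2 or uninj replicate 3, 15 without uninj replicate 1 and 24 without uninj replicate 4. Without ctrl_inj replicate 2 it was also 24, 13 of them among the 21.

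No transcript of any abundance was present in one injected group and absent from the other. Over the 28742 transcripts of the table, 4 had counts in all 4 EV_inj libraries and in 0 ctrl_inj libraries, with 1 to 6 counts per library. In the other direction there were 6, with 1 to 4 counts per ctrl_inj library. Uninjected libraries also held counts of 2 of the 4 and of all 6. None of these 10 had enough counts to be tested, and both numbers are at the limit of detection.

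The authors' deposited table of the same comparison lists 17755 transcripts and calls 24, 10 higher and 14 lower in EV_inj. All 21 calls made here are among them, and the 3 further ones had edgeR adjusted p of 0.0592 to 0.0698 in the fit to 21149 transcripts. Log2 fold changes in the authors' deposited table differed from those given here by at most 0.00289.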

How the data were processed

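RNA-seq libraries from planarian tails were read in 2 runs of paired 150-base reads. The authors deposited raw counts for every transcript, by run and merged, with transcript lengths, made with FastQC 0.11.5, Bowtie2 2.3.1 and featureCounts (Subread 1.6.3), per the submitters' processing notes, and with BBDuk, per the series' design text. The sources used here do not give the settings for strand and multi-mapping reads, so transcripts sharing sequence are uncertain. A deposited table by the authors, per the file headers, holds log2 fold changes, an F score and p-values from edgeR 4.0.16. The summed runs equalled the deposited counts for both runs in all 344904 cells.

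Counts were fitted in R 4.3.3 with edgeR 4.0.16 (filterByExpr, TMM, quasi-likelihood F test, 12 libraries, group as the single term), after a filter that left 21149 of 28742 transcripts and 99.9% of counts. CPM values are TMM-scaled. Standard errors come from the fitted weights and the moderated quasi-dispersion, and intervals use 17.4 degrees of freedom. Distances used log2(CPM + 0.5). No library repeated another: runs of the same library differed by a mean chi-square of 1.68 to 1.89, and replicates by 6.64 to 18.5. Named transcripts are the 2 rises and 2 falls with the smallest p among non-overlapping calls with a mean log2 CPM of at least 0. DESeq2 1.42.0 and limma 3.58.1 were alternatives, and figures used matplotlib 3.10.9. The 1.2-fold limit on intervals was chosen after results were seen. Marker and pathway lists could not be applied to identifiers without gene names. The comparison and its tests were chosen with earlier results of these data known.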

Additional observations from a re-analysis of the deposited data

Results flagged for a closer look

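Of 27 checks on library measures and on the levels of 6 transcripts, 2 found a single library standing well apart from its 3 replicates. Chance alone marks about 1 in 20 such groups, and the number found is no test, since 2 of the 6 transcripts were picked through values of ctrl_inj replicate 2. The transcript with the largest fitted difference had 51.4 CPM in ctrl_inj replicate 2 and 0.320 to 3.37 CPM in its replicates, so that this gap made up 0.940 of the spread. The other was uninj replicate 4, where 26613 transcripts were detected while its replicates had 27018 to 27096, the gap being 0.839 of the spread. That library also had the fewest counts, 19621187.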

How the results depend on the processing

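The 21 calls became 148 with DESeq2, 45 with a robust fit, 39 with the replicate number as a block, 6 with only the 8 injected libraries, 8 with run 2 alone, 0 against a minimum of 1.5-fold, and 0 to 51 with 1 library left out. Of these, 19 of the 148, 18 of the 45, 19 of the 39 and 6 of the 6 were among the 21. EV_inj and ctrl_inj values lay apart for 119 of the 148 and 43 of the 45, against 4.9% of all tested transcripts. The 148 and the 45 were called from the same libraries, so this separation lends no support. Fewer libraries or fewer counts entered the 8-library and run 2 fits. The cause of any of these changes in the count was not tested. DESeq2 size factors, limma-voom, no filter, the filter of 1 CPM in 4 libraries and run 1 alone gave 20 to 27 calls. For the 4 named transcripts with 23 settings each, the call held in 71 of 92 cases and was lost in 21. It held in 20 settings for dd_Smed_v6_9402_0_1, 19 for dd_Smed_v6_5175_0_1, 18 for dd_Smed_v6_2643_0_1 and 14 for dd_Smed_v6_585_0_1. All 4 calls were lost without EV_inj replicate 1, without EV_inj replicate 3 and against a minimum of 1.5-fold.

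Whether replicate numbers mark pairs was not tested. Same-numbered deviations correlated weakly, at −0.0189 to 0.179, and differently numbered ones at −0.166 to 0.181. Of the same-numbered pairs 2 of 4 passed 0.1, and 4 of 8 libraries had their best partner under their own number.

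The between-group minus within-group distance, −0.00157, was 0.00403 with Spearman distances, 0.00514 with all transcripts and 0.0152 over transcripts from a mean log2 CPM of 5 on. It ran over −0.0383 to 0.0434 with 1 library left out. It was positive without each ctrl_inj library and negative without each EV_inj one. A group that loses a library supplies fewer within-group pairs, and distances averaged 0.720 among ctrl_inj and 0.562 among EV_inj libraries. These signs therefore cannot be read as the part of single libraries. The exact permutation p of the difference ran from 0.0571 to 1 over the settings. Transcripts in 1 group only were 7 for EV_inj with run 1 alone, 10 and 17 for EV_inj and ctrl_inj with run 2 alone, and 8 to 15 and 9 to 24 with 1 library left out, where 1 fewer library has to hold counts or to hold none. Intervals within 1.5-fold numbered 12393 to 15554. Fitted 2-fold differences at a mean log2 CPM of at least 0 numbered 3 to 43 with 1 library left out. These last fits, the spread without single libraries, and DESeq2 and limma-voom without single libraries were chosen after seeing the data. At the depth of these libraries scarce transcripts limit what can be seen.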
